A study of Rattus norvegicus with 8 samples.

Results

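Fatty acid oxidation was followed in saphenous arteries of the rat, which supply the hind limb, through 47 genes of this pathway. Grouped as mitochondrial were 27 that activate fatty acids, carry them into mitochondria, oxidise them there or accompany these steps. The other 20 act in or build peroxisomes. The array measured 46 of the 47 genes under a listed name, all 27 mitochondrial and 19 peroxisomal, among 19239 probe sets with 1 probe set per gene. Pex19 was not analysed here. The genes were grouped by function, with earlier results of these data known.

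All samples came from male Wistar rats with no treatment named in the labels, so that age was the only factor that differed by design. The 4 adult samples were from rats of 2 to 3 months and each held 2 arteries of 1 animal. The 4 young samples were from rats of 10 to 12 days and each pooled 4 arteries of 2 animals, so that a young value is already an average over animals while an adult value is not. RNA of whole arteries was hybridised to 1 Affymetrix array per sample, and the values are log2 expression after normalization. Differences are given as adult minus young on this log2 scale with the standard error (SE) of the fit, and a gene is said to have risen or fallen where its adjusted p from limma, corrected over all probe sets, was below 0.01.

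A fatty acid is first activated to an acyl-CoA. The carnitine shuttle then takes it through the mitochondrial membranes, where acyl-CoA dehydrogenases, a hydratase, a hydroxyacyl-CoA dehydrogenase and a thiolase shorten it in repeated rounds of beta-oxidation, and the electrons of the dehydrogenases pass to the respiratory chain through the electron transfer flavoprotein. Peroxisomes oxidise very long and branched fatty acids, the latter also by alpha-oxidation, and hand shortened chains on to mitochondria as carnitine esters. Peroxins are the proteins that build peroxisomes and import their enzymes. Smooth muscle, the main cell type of a muscular artery, can use fatty acids beside glucose.

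Of the 46 genes measured, 23 passed the threshold (50%), 15 of them higher and 8 lower in arteries of adult rats. Over all probe sets 32.7% passed, 16.7% higher and 16% lower. These shares are the ones to set beside the counts of each role and compartment below. The 4 adult and the 4 young values did not overlap in 25 of the 46 genes, against 46.0% of all probe sets. The median difference of the 46 genes was 0.03, beside 0.00 for all probe sets, and 21 of them differed by less than 0.1 in either direction. The changes were uneven within the pathway, as the plot of differences by role shows.

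**Figure D1:**
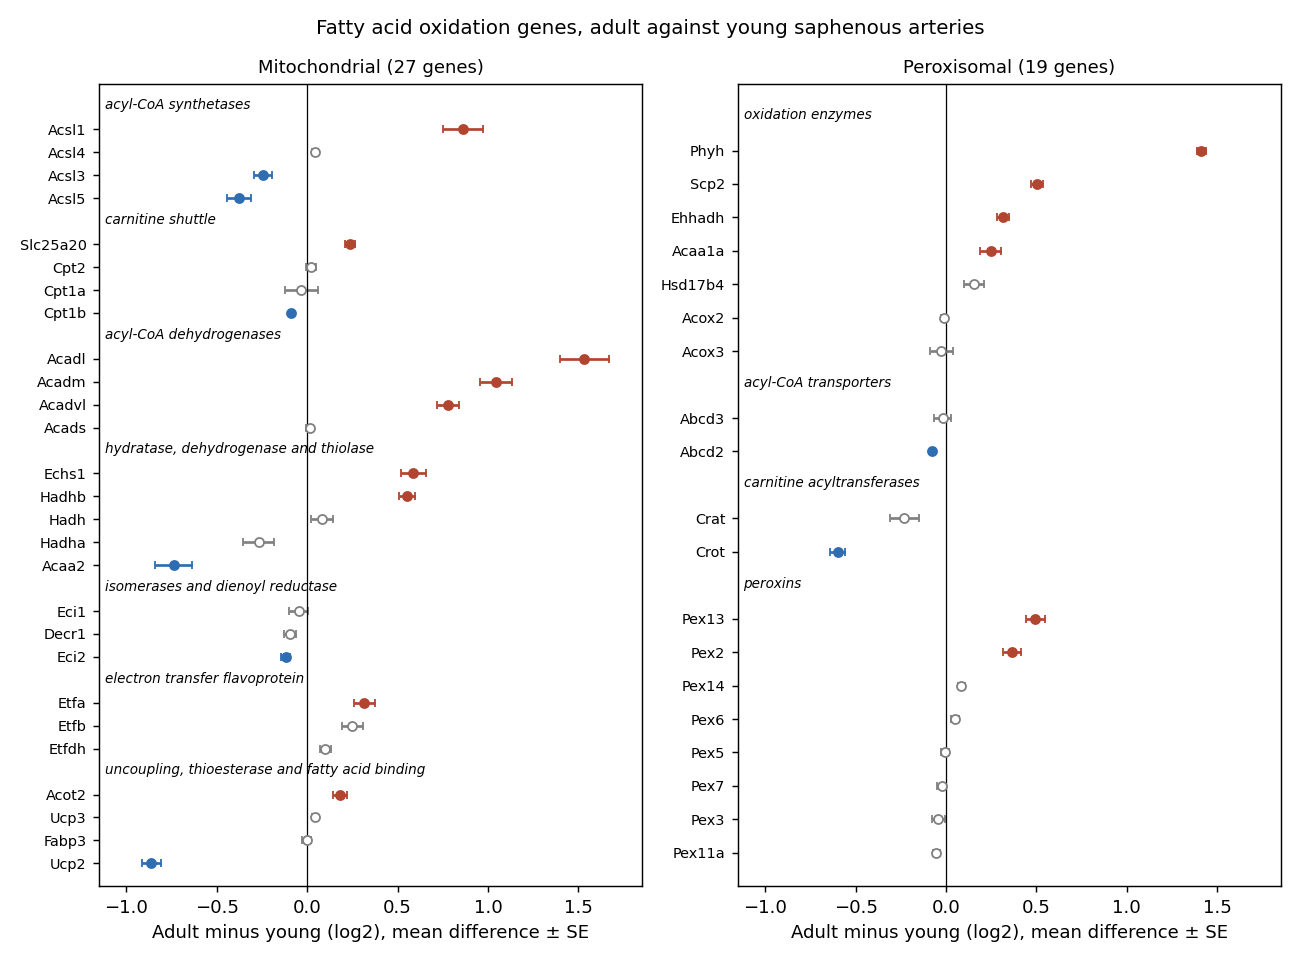
Difference between adult and young arteries (log2, horizontal axis) for the 27 mitochondrial and 19 peroxisomal genes measured, grouped by role. Points are the fitted difference and bars its SE (4 arrays per age), with filled points for genes past the threshold (red higher, blue lower in adult) and open points for the others. Acadl at 1.53 and Phyh at 1.41 lie farthest to the right, and Ucp2 at -0.86 farthest to the left.

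The acyl-CoA dehydrogenases, which start each round of mitochondrial beta-oxidation, held the highest median difference of the mitochondrial roles, 0.91, and 3 of the 4 rose. Acadl (Entrez gene 25287), the long-chain enzyme, stood at 9.48, 9.74, 10.04 and 9.99 in the 4 adult arrays and at 8.22, 8.46, 8.29 and 8.15 in the 4 young arrays. Every adult value was above every young one, and the difference was 1.53 ± 0.13 (SE), a 2.90-fold higher expression (adjusted p = 9.2e-05). Acadm (Entrez gene 24158), the medium-chain enzyme, was at 8.87, 9.10, 9.15 and 9.27 in adult and at 7.97, 8.12, 8.13 and 8.00 in young arteries. Its difference was 1.04 ± 0.09 or 2.06-fold (adjusted p = 7.45e-05). Acadvl (Entrez gene 25363), the very-long-chain enzyme of the inner mitochondrial membrane, was at 8.57, 8.53, 8.68 and 8.80 against 7.83, 7.90, 7.94 and 7.79. It rose by 0.78 ± 0.06 (adjusted p = 6.46e-05), again with no overlap. The short-chain enzyme Acads did not pass (adjusted p = 0.618). Its difference was 0.01 ± 0.02, with a 95% confidence interval from -0.03 to 0.06. Its mean was 7.27 in adult and 7.26 in young arteries, below the median of 7.29 over all values. Differences are compressed toward the low end of the scale, so the narrow interval does not show that Acads was unchanged. For all 3 dehydrogenases that rose, adult replicate 1 or 2 had the lowest adult value, and each call held when any single array was left out.

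**Figure D2:**
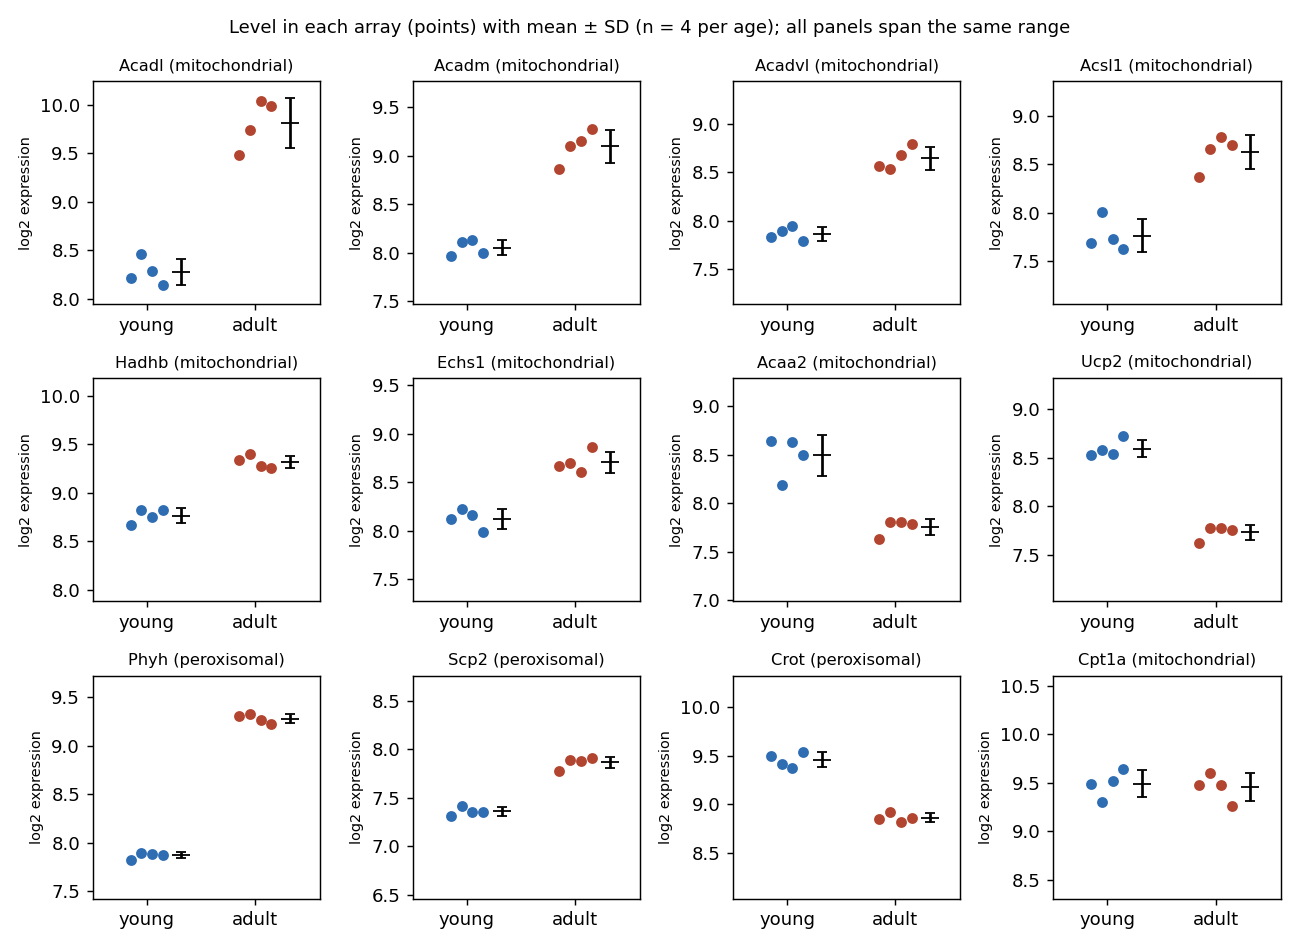
Expression of 12 members in each array (log2, vertical axis; points) beside the mean ± SD of 4 arrays per age, young in blue and adult in red. Each panel spans the same number of log2 units around its own centre, so that sizes can be compared between panels but levels cannot. The ages are apart in 11 panels and overlap in that of Cpt1a.

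Of the 4 activating enzymes, 1 rose and 2 fell. Acsl1 (Entrez gene 25288), a long-chain acyl-CoA synthetase known for feeding beta-oxidation in heart and brown fat, was at 8.37, 8.65, 8.79 and 8.70 in adult and at 7.69, 8.01, 7.73 and 7.63 in young arteries, a difference of 0.86 ± 0.11 or 1.82-fold (adjusted p = 6.45e-04). Acsl5, a synthetase of mitochondria and endoplasmic reticulum, fell by 0.38, with adult values of 7.89, 7.99, 8.04 and 7.79 and young values of 8.22, 8.35, 8.41 and 8.23 (adjusted p = 2.66e-03). Acsl3, which acts at the endoplasmic reticulum and lipid droplets, was at 7.72, 7.89, 7.66 and 7.74 against 7.92, 8.05, 8.00 and 8.02. It fell by 0.25 (adjusted p = 6.6e-03). That call was lost when any array other than adult replicate 2 or young replicate 1 was left out, with adjusted p-values of up to 0.0202. Acsl4, which prefers arachidonic acid, differed by 0.04 ± 0.01 and did not pass (adjusted p = 4.26e-02). All 4 synthetases, Acsl1 included, were treated as genes of several sites. Without the genes assigned to several sites the mitochondrial counts were 8 higher and 3 lower of 22.

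In the carnitine shuttle, 1 of 4 genes rose and 1 fell. Cpt1a, the liver-type carnitine palmitoyltransferase of the outer membrane that malonyl-CoA inhibits, was at 9.48, 9.60, 9.48 and 9.27 in adult and at 9.49, 9.31, 9.52 and 9.65 in young arteries. The ages overlapped, and the difference was -0.03 ± 0.09 with a 95% confidence interval from -0.25 to 0.18 (adjusted p = 0.797). Cpt1b, the muscle-type enzyme, lay near the low end of the scale in every array (adult 6.98 to 7.0, young 7.05 to 7.10) and fell by 0.09 (adjusted p = 9.24e-04). Slc25a20, the carnitine-acylcarnitine translocase of the inner membrane, rose by 0.24 ± 0.03, from 7.56, 7.52, 7.54 and 7.52 in young to 7.70, 7.76, 7.81 and 7.83 in adult arteries (adjusted p = 4.34e-04). Cpt2, which reforms the acyl-CoA inside, differed by 0.02 ± 0.03 (95% confidence interval -0.04 to 0.09, adjusted p = 0.547).

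Among the enzymes that complete a round, Echs1 (Entrez gene 140547), the short-chain enoyl-CoA hydratase, rose by 0.59 ± 0.07 or 1.5-fold, with adult values of 8.67, 8.70, 8.60 and 8.86 and young values of 8.12, 8.22, 8.16 and 7.98 (adjusted p = 3.84e-04). Acaa2 (Entrez gene 170465), a thiolase that releases acetyl-CoA, moved the other way: it was at 7.63, 7.80, 7.80 and 7.78 in adult and at 8.65, 8.19, 8.63 and 8.5 in young arteries. The difference was -0.74 ± 0.10, with young expression 1.67-fold that of adult (adjusted p = 9.27e-04), and it lay between -0.84 and -0.69 when single arrays were left out. Hadh, the medium- and short-chain hydroxyacyl-CoA dehydrogenase, differed by 0.08 ± 0.06 (95% confidence interval -0.06 to 0.22, adjusted p = 0.304).

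The subunits of the mitochondrial trifunctional protein, the membrane complex that carries out the last steps on long chains, differed in their values: Hadhb rose and Hadha did not pass. Hadhb (Entrez gene 171155), the beta subunit with the thiolase activity, was at 9.33, 9.39, 9.27 and 9.26 in adult and at 8.66, 8.82, 8.75 and 8.82 in young arteries and rose by 0.55 ± 0.05 (adjusted p = 7.11e-05). Hadha (Entrez gene 170670), the alpha subunit with the hydratase and dehydrogenase activities, was at 9.28, 9.25, 9.23 and 9.19 against 9.50, 9.63, 9.63 and 9.25. Its difference was -0.27 ± 0.08 with an adjusted p of 0.0348, and young replicate 4 lay within the adult range while the other 3 young values lay above it. Without young replicate 4 the difference was -0.35 and passed the threshold (adjusted p = 7.13e-04). Taken as the Hadhb over Hadha ratio within each array and set against its young mean, the adult arrays were at 0.80, 0.88, 0.78 and 0.81 and the young arrays at -0.10, -0.07, -0.14 and 0.31. The mean ratio differed by 0.82, with no overlap of the ages. For the other pair, the alpha and beta subunits of the electron transfer flavoprotein, the Etfa over Etfb ratio differed by 0.07 and the ages overlapped. Both ratios were chosen after the values of the genes had been seen and are given as a description, with no test.

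**Figure D3:**
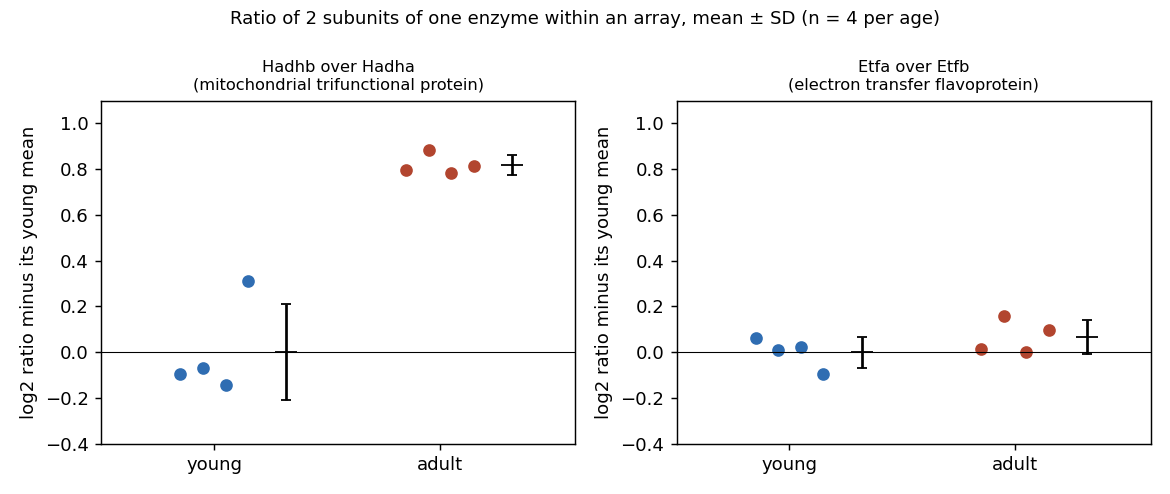
Log2 ratio of 2 subunits of one enzyme within each array, after subtraction of its young mean (vertical axis), for the trifunctional protein (left) and the electron transfer flavoprotein (right). Points are arrays and bars the mean ± SD of 4 arrays per age. The Hadhb over Hadha ratio is between 0.78 and 0.88 in adult arrays and at most 0.31 in young arrays, whereas the Etfa over Etfb ratios overlap.

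Hadha and Hadhb lie head to head on rat chromosome 6, with 243 bases between their gene records in RefSeq (GRCr8). The 250 bases before the annotated start of Hadha, on the plus strand at chr6:31907551-31907800, are printed to show how much upstream sequence the pair shares. Capitals mark the 200 bases (31907551 to 31907750) that also belong to the window of Hadhb on the opposite strand. The starts used for the windows do not all coincide with the ends of the gene records, so the shared stretch depends on the starts taken. The windows of Acadvl, on the minus strand at chr10:55236706-55236955, and of Echs1, on the minus strand at chr1:204333507-204333756, are shown because they are the windows of genes that rose which hold AGGTCA, the core element of nuclear receptors such as the PPARs, receptors for fatty acids. There capitals mark AGGTCA, which begins 169 and 17 bases before the start of Acadvl and 93 bases before that of Echs1. All are given 5′ to 3′ on the strand of the named gene.
Hadha: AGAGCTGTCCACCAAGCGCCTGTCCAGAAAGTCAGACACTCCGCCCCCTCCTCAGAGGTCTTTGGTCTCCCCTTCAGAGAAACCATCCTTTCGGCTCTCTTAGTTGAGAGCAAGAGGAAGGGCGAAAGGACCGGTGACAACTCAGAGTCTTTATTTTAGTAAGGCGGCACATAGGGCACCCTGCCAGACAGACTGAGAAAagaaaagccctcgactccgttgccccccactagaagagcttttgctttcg
Acadvl: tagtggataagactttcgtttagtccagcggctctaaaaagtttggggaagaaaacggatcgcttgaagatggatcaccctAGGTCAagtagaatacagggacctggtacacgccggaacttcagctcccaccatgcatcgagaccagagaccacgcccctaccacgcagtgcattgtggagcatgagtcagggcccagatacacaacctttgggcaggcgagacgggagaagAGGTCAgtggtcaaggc
Echs1: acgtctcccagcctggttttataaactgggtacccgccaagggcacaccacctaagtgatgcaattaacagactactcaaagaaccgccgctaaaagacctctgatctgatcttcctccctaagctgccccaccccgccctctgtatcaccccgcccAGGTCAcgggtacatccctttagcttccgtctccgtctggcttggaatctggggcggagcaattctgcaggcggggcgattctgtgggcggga

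Windows of this length were at hand for 40 of the members and for 33469 genes in all. AGGTCA, searched on both strands, occurred in 6 of the 40 (15%) and in 14.1% of all windows. The 6 were Acadvl, Echs1, Ucp3, Abcd2, Eci1 and Hsd17b4, of which Acadvl and Echs1 rose (2 of 13 risen genes with a window) and Abcd2 fell (1 of 6 fallen genes with a window). The direct repeat DR1, AGGTCA repeated after 1 base of any kind, occurred in 0 of the 40 and in 0.0508% of all. GGGCGG, the core of the GC box, occurred in 25 of the 40 (62.5%) and in 30.5% of all, and CCAAT in 12 (30.0%) and in 34.0%. These are matches of letters, not measured binding. Hadha and Hadhb both count for GGGCGG, and the match in the Hadha window lies in the stretch that the pair shares. The windows of all genes were not matched to those of the members in gene type or base composition.

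The electron transfer flavoprotein passes electrons from the acyl-CoA dehydrogenases to the respiratory chain. Its alpha subunit gene Etfa rose by 0.32 ± 0.06 (adult 8.58, 8.73, 8.63 and 8.84, young 8.31, 8.37, 8.44 and 8.38, adjusted p = 3.51e-03), although the call was lost without adult replicate 2 or without young replicate 1, 2 or 4 (adjusted p up to 0.0122). Etfb was at 8.15, 8.16, 8.21 and 8.33 against 7.84, 7.95, 8.00 and 8.07, a difference of 0.25 ± 0.06 that just missed the threshold (adjusted p = 1.06e-02). It was called in 9 of the alternatives, counting the looser threshold of 0.05, among them array weights (adjusted p = 0.00568). Of the fits that leave out an array, only that without young replicate 4 called Etfb (adjusted p = 0.00857). Etfdh, the oxidoreductase that takes the electrons on to ubiquinone, differed by 0.10 ± 0.03 (adjusted p = 3.1e-02) and passed without adult replicate 1 (0.12, adjusted p = 0.00629). Of the 3 auxiliary enzymes for unsaturated chains, the isomerase Eci2 fell by 0.12 (adjusted p = 8.1e-03, above the threshold in 7 of the 8 fits that leave out an array, all but that without adult replicate 3), and Eci1 and the dienoyl-CoA reductase Decr1 differed by -0.05 and -0.09 without passing.

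Ucp2 (Entrez gene 54315), an inner membrane carrier of the uncoupling protein family, had the lowest difference of all members. It was at 7.62, 7.78, 7.77 and 7.75 in adult and at 8.53, 8.58, 8.54 and 8.72 in young arteries, a difference of -0.86 ± 0.05 with young expression 1.82-fold that of adult (adjusted p = 2.02e-05). Its homologue Ucp3 differed by 0.04 ± 0.02 and did not pass (adjusted p = 0.06), at 7.04 to 7.13 in all arrays, near the low end of the scale. Acot2, a mitochondrial acyl-CoA thioesterase, rose by 0.18 (adjusted p = 7.87e-03), a call kept only without adult replicate 2 or young replicate 3 among the fits that leave out an array. Fabp3, the heart-type fatty acid binding protein of the cytosol, differed by -0.00 ± 0.03 (95% confidence interval -0.06 to 0.06). At 7.10 to 7.20 in all arrays it also lay near the low end of the scale, where differences are compressed.

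In peroxisomes, the enzyme with the clearest separation was Phyh (Entrez gene 114209), phytanoyl-CoA hydroxylase, which begins the alpha-oxidation of branched fatty acids. It was at 9.31, 9.33, 9.27 and 9.23 in adult and at 7.83, 7.89, 7.89 and 7.88 in young arteries. The difference of 1.41 ± 0.03 (2.66-fold, adjusted p = 2.71e-07) had the lowest adjusted p of the 46 genes. Scp2 (Entrez gene 25541), whose long form is the thiolase for branched chains and whose short form is a sterol carrier, rose by 0.50 ± 0.03 or 1.42-fold, from 7.31, 7.42, 7.35 and 7.35 to 7.78, 7.89, 7.88 and 7.90 (adjusted p = 2.88e-05). The array gives 1 value for both forms.

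Of the other peroxisomal oxidation enzymes, Ehhadh and Acaa1a rose and 3 did not pass. Ehhadh, the bifunctional enzyme that hydrates and dehydrogenates, was at 7.47, 7.44, 7.33 and 7.37 in adult and at 7.08, 7.11, 7.10 and 7.05 in young arteries and rose by 0.32 ± 0.03 (adjusted p = 1.77e-04). The thiolase Acaa1a rose by 0.25 ± 0.06 (adjusted p = 9.97e-03), a call that only the fit without young replicate 3 kept when single arrays were left out. Hsd17b4, the other bifunctional enzyme, was at 8.04, 8.22, 8.24 and 8.27 against 7.99, 8.12, 8.04 and 7.99 and did not pass (difference 0.16 ± 0.06, adjusted p = 5.48e-02). Without adult replicate 1 it did, at 0.21 (adjusted p = 0.00431). The branched-chain oxidases Acox2 and Acox3 differed by -0.01 and -0.03 and did not pass, with Acox2 near the low end of the scale (7.01 to 7.07 in all arrays). In all, 4 of the 7 peroxisomal oxidation enzymes measured rose and 0 fell, with a median difference of 0.25.

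Of the 2 carnitine acyltransferases, which ready shortened chains for export, 1 fell and the other did not pass. Crot (Entrez gene 83842), the carnitine octanoyltransferase that makes medium-chain carnitine esters, was at 8.85, 8.92, 8.81 and 8.86 in adult and at 9.50, 9.41, 9.38 and 9.54 in young arteries. It fell by 0.60 ± 0.04, with young expression 1.51-fold that of adult (adjusted p = 3.16e-05). Crat, the acetyltransferase of peroxisomes and mitochondria, was at 9.34, 9.11, 9.24 and 9.36 against 9.45, 9.33, 9.55 and 9.65. Young replicate 2 lay within the adult range and the other 3 young values above it, and the difference of -0.23 ± 0.08 did not pass (adjusted p = 5.48e-02). Of the membrane transporters that bring acyl-CoA in, Abcd2 fell by 0.07 near the low end of the scale (adult 6.95 to 6.98, young 7.02 to 7.06, adjusted p = 2.04e-03) and Abcd3 differed by -0.02 ± 0.05 (adjusted p = 0.788).

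Of the 8 peroxins measured, 2 rose and 0 fell. Pex13, part of the docking complex for import receptors, was at 8.66, 8.66, 8.49 and 8.76 in adult and at 8.17, 8.13, 8.13 and 8.17 in young arteries, a difference of 0.49 ± 0.05 (adjusted p = 2.63e-04). Pex2, a subunit of the ubiquitin ligase that recycles the import receptor, was at 7.93, 7.88, 8.02 and 7.98 against 7.58, 7.70, 7.61 and 7.47 (difference 0.36 ± 0.05, adjusted p = 8.97e-04). Pex14, the docking partner of Pex13, differed by 0.08 ± 0.02, with no overlap of the ages and an adjusted p of 0.012, and passed without adult replicate 1 (adjusted p = 4.08e-04). The import receptors Pex5 and Pex7, the ATPase Pex6, the membrane biogenesis factor Pex3 and the division factor Pex11a differed by between -0.05 and 0.05 and did not pass, except that Pex11a passed without young replicate 3 (-0.07, adjusted p = 0.00352).

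Set side by side, 15 of the 27 mitochondrial genes passed (55.6%, 9 higher and 6 lower) and 8 of the 19 peroxisomal genes (42.1%, 6 higher and 2 lower). The share of all probe sets was 32.7%. The median difference was 0.04 in the mitochondrial and -0.005 in the peroxisomal genes, and the ranges were -0.86 to 1.53 and -0.60 to 1.41. The sign of the peroxisomal median turned without adult replicate 1 (0.012), adult replicate 3 (0.013), young replicate 2 (0.016) or young replicate 4 (0.013), without the dimmest rows or the genes of several sites (0.023 each) and with ribosomal protein centring (0.044), so that it has no settled direction. The difference between the compartments was not tested. The mean deviation of the mitochondrial genes from their young mean was 0.08 to 0.17 in the adult arrays and -0.02 to 0.02 in the young arrays, and that of the peroxisomal genes was 0.12 to 0.15 and -0.01 to 0.01. With the genes of several sites left out, 5 of 16 peroxisomal genes rose and 1 fell.

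Signal near the low end of the scale, where the lowest value corresponds to an intensity of 111, compresses differences. Subtracting that lowest intensity enlarged the difference of all 46 genes without changing a sign, by 1.2 to 3.84 times in the 23 that passed and by more than 1.5 times in 14 of them. Acadl then stood at 1.90, Acadm at 1.41, Acsl1 at 1.30, Phyh at 1.92, Ehhadh at 0.86, Ucp2 at -1.32 and Acaa2 at -1.13. Taking the same amount from a pair of intensities always enlarges their log ratio and keeps its sign. The larger sizes and the kept signs are therefore no test of the differences.

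The neighbouring steps of fatty acid metabolism were described with 7 lists of other genes, of which 96 of 113 were measured, and their counts stand beside the 16.7% higher and 16% lower of all probe sets. Fatty acid synthesis, the opposing pathway, held 7 genes that fell and 0 that rose of 11 (63.6%), with a median of -0.49. The methods' analysis of variance called 3 of them lower, the fits without single arrays called between 3 (without adult replicate 3, adult replicate 4 or young replicate 3) and 6, and centring on ribosomal protein genes called 1 gene of the list higher. Scd2, a stearoyl-CoA desaturase, was at 10.44, 10.39, 10.14 and 10.31 in adult and at 11.52, 11.57, 11.24 and 11.44 in young arteries and fell by 1.12. Acly, which makes cytosolic acetyl-CoA from citrate, fell by 0.71 ± 0.03 (adjusted p = 3.8e-06). Elovl6, an elongase, fell by 0.89 ± 0.19, and its young values of 7.73, 7.77, 8.01 and 8.64 were spread more widely than its adult values of 7.10 to 7.2. Its call held in 2 of the 8 fits that leave out an array, whereas 3 of the 7 genes that fell kept theirs in all 8. Fasn was not analysed here.

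The control of Cpt1 by malonyl-CoA and AMPK, the kinase that restrains malonyl-CoA synthesis, had 8 of 10 genes past the threshold (80.0%, the highest share of these 7 lists), 5 higher and 3 lower. Prkag2, a gamma subunit of AMPK, was at 10.60, 10.65, 10.77 and 10.73 in adult and at 9.32, 9.31, 9.24 and 9.46 in young arteries and rose by 1.36 ± 0.06 (adjusted p = 4.81e-06). The catalytic subunit gene Prkaa2 rose by 0.80, and Stk11, the kinase that activates AMPK, by 0.61. Prkab1, a beta subunit, fell by 0.37, and Mlycd, which breaks down malonyl-CoA, fell by 0.39, a call kept in 3 of the 8 fits that leave out an array. Acaca, the acetyl-CoA carboxylase of synthesis, rose by 0.24 (4 of 8 such fits), and Acacb, the mitochondrial carboxylase, fell by 0.07 near the low end of the scale (2 of 8).

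Among the PPARs and their coactivators, corepressors and related regulators, 7 of 14 genes rose and 0 fell (50%). Ppargc1b, a coactivator of mitochondrial genes, was at 8.34, 8.48, 8.76 and 8.76 against 7.90, 7.91, 7.82 and 7.87 and rose by 0.72 ± 0.10 (adjusted p = 8.73e-04). Ppara, the receptor known for driving fatty acid oxidation genes in liver, rose by 0.41 ± 0.06, from 7.05, 7.04, 7.06 and 7.06 in young to 7.55, 7.27, 7.48 and 7.54 in adult arteries (adjusted p = 1.35e-03). Pparg rose by 0.26. The lowest differences that passed were Esrra at 0.11, Sirt3 at 0.13 and the corepressor Ncor1 at 0.18. Ppargc1a stayed between 6.89 and 6.93 in all arrays and did not pass (difference 0.02 ± 0.01). Of 10 PPAR targets outside the 47 genes, 2 rose and 1 fell (30.0%): Pdk2 by 0.54 and Vldlr by 0.21 upward, Angptl4 by 0.14 downward. The calls of Pdk2 and of Angptl4 held in 2 of the 8 fits that leave out an array. Pdk4, a kinase that spares glucose, differed by -0.11 ± 0.06 and did not pass (adjusted p = 0.197).

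In fatty acid supply and storage, 3 genes were higher and 2 lower of 13 (38.5%), a share near the 32.7% of all probe sets. Pnpla2, the lipase that begins the breakdown of stored triglyceride, was at 9.96, 9.92, 9.93 and 9.99 against 9.12, 9.17, 9.21 and 9.17 and rose by 0.78 ± 0.02 (adjusted p = 1.24e-06). Mgll, which completes that breakdown, rose by 0.50. Gpihbp1, the endothelial anchor of lipoprotein lipase, fell by 0.49 and Slc27a3 by 0.10. Cd36, a fatty acid translocase, differed by -0.31 with no overlap of the ages and narrowly missed the threshold (adjusted p = 0.012). Lpl was at 10.05, 10.24, 9.85 and 8.90 in adult and at 8.84, 9.29, 9.18 and 9.39 in young arteries, so that adult replicate 4 stood among the young values (difference 0.58 ± 0.29, adjusted p = 0.148).

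Of 17 further mitochondrial genes of acyl-CoA, ketone and carnitine metabolism, 6 rose and 0 fell (35.3%). Over all probe sets 32.7% passed in either direction and 16.7% were higher. The highest were Acadsb at 1.16 ± 0.14, Acss1 at 1.16 ± 0.17 and Ivd at 0.95 ± 0.05, of which Acadsb and Ivd are acyl-CoA dehydrogenases of branched-chain amino acid breakdown and Acss1 activates acetate. Pcca, Acad11 and Hsd17b10 rose by 0.67, 0.31 and 0.28. Of 27 other genes listed as peroxisomal, not all of which act in peroxisomes alone, 7 rose and 0 fell (25.9%). The highest were Nudt19 at 0.60, Mff, the mitochondrial fission factor, at 0.60 and Pex16 at 0.31. Acaa1b at 0.09, Pecr at 0.14 and Decr2 at 0.21 were the lowest that passed. The 25.9% was below the 32.7% of all probe sets that passed in either direction, but all 7 were higher, beside 16.7% higher of all probe sets.

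**Figure D4:**
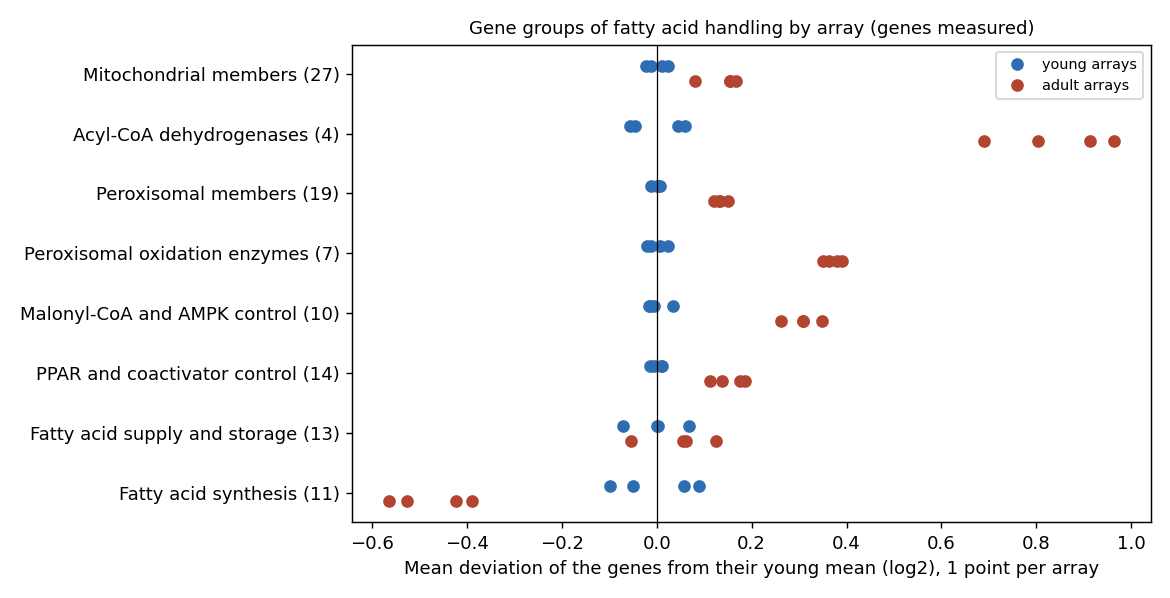
Mean deviation of the genes of each group from their young mean in each array (log2, horizontal axis), with the number of genes measured in parentheses and 1 point per array (blue young, red adult). The acyl-CoA dehydrogenases are at 0.69 to 0.96 in the adult arrays and the genes of fatty acid synthesis at -0.57 to -0.39, and the ages overlap in the group of supply and storage.

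The cell makeup of the samples was read from marker lists, given as the mean log2 level of each list. In bulk samples, fewer cells of a type and less RNA per cell cannot be told apart. Smooth muscle markers, which define the labelled tissue, were high at both ages and higher in adult arteries (12.83 to 12.95 against 12.18 to 12.29, 5 of 5 genes risen; Acta2 was not analysed here). Endothelial markers were lower in adult arteries (8.22 to 8.73 against 9.35 to 9.98, 2 of 5 fallen), as were those of fibroblasts (10.87 to 11.02 against 11.26 to 11.34, 4 of 6 fallen and 1 risen). Macrophage markers were higher (7.92 to 8.23 against 7.43 to 7.57, 4 of 5 risen). Of the cell types known for high fatty acid oxidation, brown adipocytes left 0 of 5 markers past the threshold (7.21 to 7.44 against 7.17 to 7.23). Ucp1 was at 6.93 to 6.96 in all arrays, whereas Cidea was at 9.28, 8.37, 8.10 and 9.09 in adult and at 7.88, 7.90, 8.04 and 8.08 in young arteries, with no overlap of the ages (difference 0.74 ± 0.26, adjusted p = 0.0558). Skeletal muscle markers were at 7.90 to 8.0 against 7.82 to 8.38, with 1 risen and 1 fallen of 11. The count and the mean hide a lower signal in adult arteries, with a median difference of -0.325. Pygm rose by 1.06, against the direction of that median. Actn3 (-0.76) and Myh4 (-0.57) did not pass, although their ages did not overlap. White adipocyte markers were at 7.13 to 7.21 in adult and 7.16 to 7.36 in young arteries, with 1 of 11 past the threshold, Pparg. Young replicate 2 was the highest of them, with Adipoq at 8.12. The part of these cell types in the differences of the fatty acid oxidation genes was not tested.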

How the data were processed

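Saphenous artery RNA of 8 samples (4 per age) was measured on Affymetrix arrays. The deposited values are log2 expression, which the authors made with RMA and quantile normalization on 1 probe set per Entrez gene. Neither the RMA version nor the background correction is given in the sources used here. Every column holds the same sorted values (6.8 to 13.82, median 7.29), so no overall shift between ages can be seen. Signal limits the precision of arrays, and 4 samples per age limit it further.

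Of 19239 probe sets, 16592 had a listed symbol, updated through the Entrez identifier, and 2647 were unnamed and used only in the fit and the adjustment. A linear model with age as its only term was fitted to all probe sets (limma 3.58.1, R 4.3.3, moderated by eBayes). Two-sided p-values were adjusted after Benjamini-Hochberg over all of them, with a threshold of 0.01. The fit was tested on simulated data. The members and lists were chosen with earlier results of these data known. Values per array were given for members past the threshold with a difference of at least 0.5 and for those of the same role that opposed them, with others added after their values were seen. Of each list, the 3 highest and 3 lowest genes past the threshold could be named, beside Ppara, Ppargc1a, Pdk4, Cd36, Lpl, Acaca, Acacb and Fasn. A further gene of that rule is not reported here. Nothing says that a replicate number is shared between ages. The correlations of same-numbered arrays' deviations from their group means were -0.08, -0.03, 0.04 and 0.01. Alternatives were the methods' analysis of variance, an intensity trend with robust variances, array weights, removal of the dimmest 25% of rows, centring on 37 ribosomal protein genes, a block for the replicate number or for sample codes on either side of 20, subtraction of the lowest intensity (offset 16), a looser threshold of 0.05, a minimum fold of 1.5, and fits without single arrays or without genes of several sites. Promoter sequences are from RefSeq (GRCr8). Of that table's windows, the 50 bases after the start were not used.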

Additional observations from a re-analysis of the deposited data

Results flagged for a closer look

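Among the 92 sets of 4 arrays that the 46 genes give at 2 ages, 2 held an array far from the other 3, and chance gives about 1 in 20. For Acaa2 in adult arteries, adult replicate 1 was at 7.63 and the others at 7.78 to 7.80, all below the young values. For Acsl4 in young arteries, young replicate 4 was at 7.6 and the others at 7.57, a gap that is small beside the differences of the other synthetases.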

How the results depend on the processing

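Over all probe sets 3216 genes were higher and 3080 lower in adult arteries. The methods' analysis of variance called 2830 and 2687, and a minimum fold of 1.5 left 716 and 711. Centring on ribosomal protein genes moved the median of all genes from 0.00 to 0.05, the genes called lower to 1817 and the share of higher calls from 51.1% to 59.8%. It also left 3 mitochondrial and 1 peroxisomal gene lower, with medians of 0.092 and 0.044, and turned the sign of genes that had not passed, namely Cpt1a (0.015), Eci1 (0.001), Fabp3 (0.046), Acox2 (0.035), Acox3 (0.023), Abcd3 (0.031), Pex3 (0.007), Pex5 (0.044) and Pex7 (0.024). A fold of at least 1.5 left 5 mitochondrial genes higher and 2 lower, 1 peroxisomal gene higher and 1 lower, and 11 and 3 genes of the lists, which without it had 29 higher and 13 lower. Without the dimmest rows 1 peroxisomal gene was lower and the peroxisomal median was 0.023, as it was without the genes of several sites. With the lowest intensity subtracted the mitochondrial median was 0.084. The analysis of variance called 7 list genes lower.

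No label or check pairs the samples by replicate number. With the number as a block, 2191 genes were higher and 2217 lower, mitochondrial counts were 8 and 4, peroxisomal counts 4 and 1, and 6 list genes were lower. Acaa2 then had an adjusted p of 1.02e-02. With the sample code as a block the counts over all probe sets were 2928 and 2799, and Fabp3 stood at 0.002.

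When single arrays were left out, list genes called lower ranged from 6 (without young replicate 3) to 12, and the peroxisomal median from -0.007 to 0.016. The differences ranged from -0.095 to 0.031 for Cpt1a, -0.027 to 0.009 for Fabp3, -0.069 to 0.013 for Acox3, -0.042 to 0.016 for Abcd3 and -0.027 to 0.013 for Pex5. Of the 23 members past the threshold, 18 passed in all 8 such fits. Over all members and alternatives, 721 values kept their direction and side of the threshold, 64 kept the direction but no longer passed, 22 newly passed and 20 turned sign. The cause of these changes was not tested. Genes near the low end of the scale, such as Cpt1b, Abcd2 and Acacb, are limited by signal over background.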
